A study of Mirounga angustirostris with 8 samples.

Results

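Of 10 genes sought as markers of macrophages and complement C1q, 8 had an entry under their symbol in the read-count table of northern elephant seal (NES) longissimus dorsi muscle: the C1q chains C1QA and C1QB, the receptors CSF1R, CD14, MRC1 and LYVE1, and the intracellular proteins CD68 and AIF1. CD163 and C1QC had no entry under those symbols and were not analysed here. The table names 24341 genes, of which 19403 had a read and 14314 passed the filter on low counts. All 8 genes passed it. Libraries were made from poly-A RNA of biopsies from adult females that came ashore to fast and molt. A total of 4 libraries were from seals within 5 days of arrival (labelled early molt, here pre-molt; seals 5572, 5842, 6762 and C497). The other 4 were taken late in the molt, before the return to sea (labelled late molt, here post-molt; seals 4448, 5572, 9678 and X410). The labels put late-molt sampling at 34 days of molt on average, which the study's methods count from the first sample, and give no day for single libraries. The labels give no other treatment. Seal 5572 gave a library at both times, so the 8 libraries came from 7 seals. The study kept the biopsies with the most unique reads in each condition, and the reads of this species were counted on the genes of the Hawaiian monk seal.

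Resident macrophages of skeletal muscle sit in the connective tissue between fibers, clear cell debris and iron-rich hemoglobin, and help fibers to recover after damage or disuse. They depend on the growth factor receptor CSF1R. They are also a major source of C1q, the recognition molecule of the classical complement pathway, which is built from A, B and C chains and binds immune complexes and dying cells. In RNA from whole tissue, fewer macrophages and less RNA per macrophage cannot be told apart.

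Libraries held 30774895 to 61229829 reads counted on genes. Expression is given in CPM, the count of a gene for each 1000000 reads of its library, after scaling between libraries with TMM factors. The biopsies were dominated by muscle: 11 fiber genes, among them the myoglobin gene MB and the actin gene ACTA1, summed to 184291 to 299685 CPM, against 19.8 to 87.0 CPM for the 8 macrophage and C1q markers together. Hemoglobin genes were not found under the symbols sought. A total of 8119 entries carry only LOC identifiers, under which these and other genes not found may stand. The 5 red cell markers present, with SLC4A1 and HEMGN at 0 in every library, summed to at most 3.44 CPM, a sum that lacks the hemoglobins and so does not bound the blood content. Keratinocyte markers summed to at most 2.95 CPM, with KRT10, KRT15 and DSG1 at 0 throughout. Some libraries had many tested genes with no read: 1119 in pre-molt 5842, 1328 in post-molt 4448, although it had the most reads, and 2117 in post-molt 9678, against 3 in post-molt 5572.

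Pre-molt 5842 stood apart. It had the highest value of all 8 libraries for 7 of the 8 markers, whereas it was the highest library for 20.4% of all genes tested. Its sum over the 8 markers was 87.0 CPM, and the other 3 pre-molt libraries had 19.8 to 28.6 CPM. Summed fibroblast markers were also highest there, at 2130 CPM against 735 to 1076 CPM in the other pre-molt libraries and 404 to 743 CPM post-molt. Whether the connective tissue content of this biopsy had a part in its marker levels was not tested. By the study's mapping summary, a smaller share of reads mapped uniquely in pre-molt 5842 than in the other pre-molt libraries. Post-molt 9678 had the smallest share of all libraries. Whether library quality had a part in the marker levels was not tested either. Because pre-molt 5842 stood apart, each marker is given with and without it.

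No marker passed the test between pre-molt and post-molt muscle. By the edgeR quasi-likelihood test, with Benjamini-Hochberg adjustment over all genes tested, 0 of 8 had an adjusted p under 0.05. Of all genes tested, 0.349% did (0.217% higher and 0.133% lower post-molt). Also 0 of 8 had an unadjusted p under 0.05, which 11.4% of all genes had (5.2% higher and 6.22% lower). DESeq2 gave an adjusted p for 4 of the 8 and called 0 of them, where it called 6.52% of the 9992 genes with an adjusted p (3.35% higher and 3.16% lower). Its unadjusted value for CD68, which had no adjusted one, was 0.0234. Limma-voom called 0, adjusted or not. The log2 fold change (post-molt over pre-molt) was negative for 6 of the 8 and positive for CSF1R and CD68. Its median over the 8 was -0.60, beside -0.04 over all genes tested, and without pre-molt 5842 it was 0.49, with 5 of the 8 positive.

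**Figure D1:**
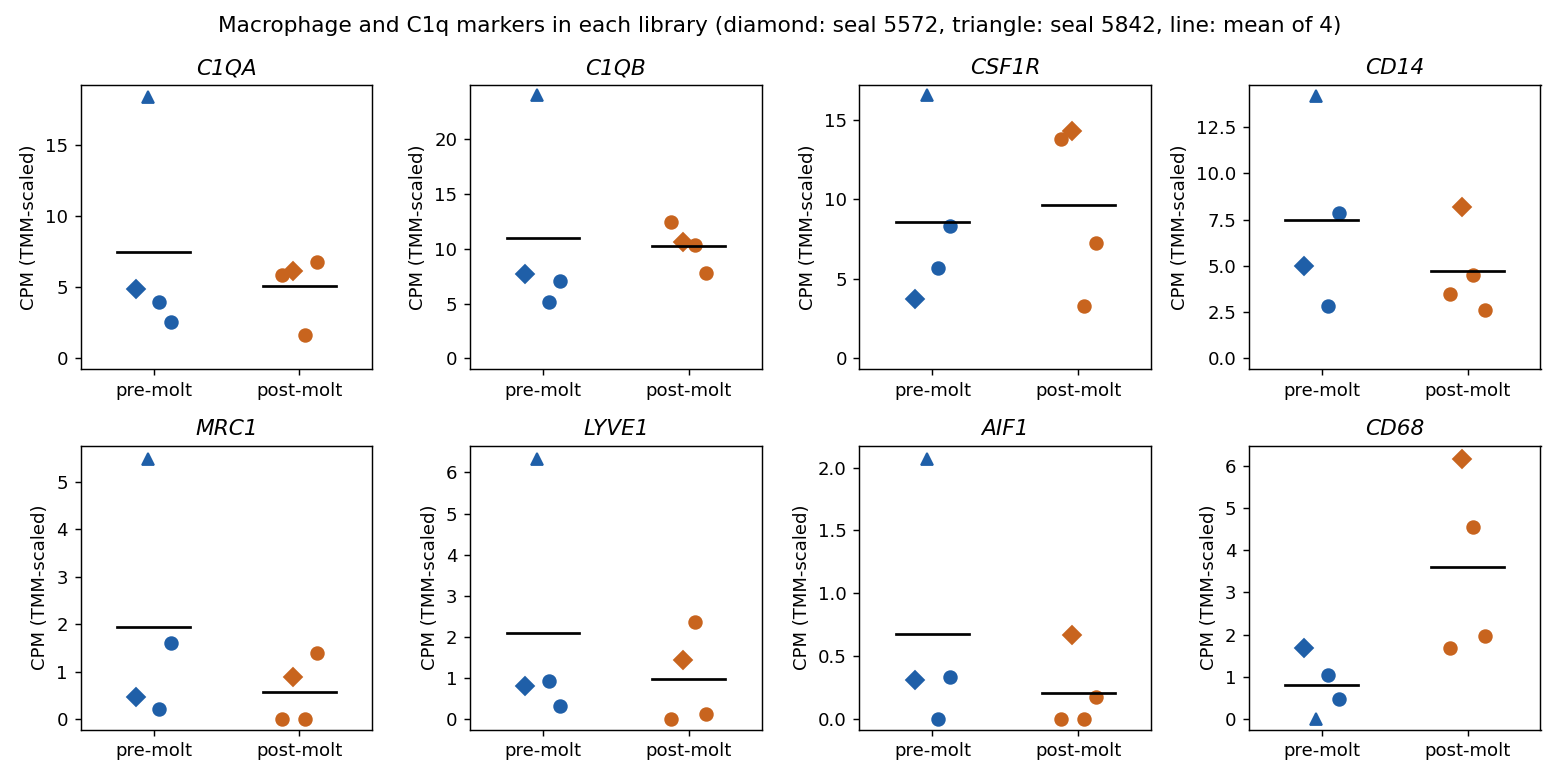
Expression of the 8 markers in each library, in TMM-scaled CPM on a linear axis that differs between panels. Each symbol is 1 library (blue pre-molt, orange post-molt), and lines are means of 4. Pre-molt 5842 (triangle) is the highest point in 7 panels and the lowest, at 0, in the panel of CD68.

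C1QA, which codes for the A chain of C1q, was at 4.90, 18.4, 3.97 and 2.59 CPM in pre-molt seals 5572, 5842, 6762 and C497. Post-molt it was at 5.85, 6.14, 1.61 and 6.80 CPM in seals 4448, 5572, 9678 and X410. The groups overlapped: 3 post-molt libraries lay above every pre-molt library except 5842, and 9678 lay below them all. Means were 7.46 ± 7.34 and 5.10 ± 2.36 CPM (SD, n = 4 libraries each), with a log2 fold change of -0.54 ± 0.62 (SE; 95% interval -1.90 to 0.81; edgeR adjusted p = 0.844). Without pre-molt 5842 it was 0.45, with an interval of -0.76 to 1.65.

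C1QB, the gene of the B chain, had the most reads of the 8 markers (3754 over all libraries). It was at 7.68, 24.0, 5.13 and 7.07 CPM pre-molt and at 12.5, 10.6, 10.4 and 7.77 CPM post-molt, in the same order of seals. Every post-molt library exceeded the 3 pre-molt libraries other than 5842, which was the highest of all. Over all libraries the means were 11.0 ± 8.76 and 10.3 ± 1.94 CPM (log2 fold change -0.09 ± 0.44, 95% interval -1.05 to 0.87, edgeR adjusted p = 0.971). Without pre-molt 5842 the log2 fold change was 0.66 (-0.03 to 1.35, unadjusted p = 0.0589, edgeR adjusted p = 0.570), so the sign of the difference turned with 1 library and the test was passed in neither case.

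The A and B chains enter C1q in equal number, so the balance of their reads was also compared. In the genome annotation of NES (assembly mMirAng1.0.hap1), C1QB, C1QC and C1QA are listed next to one another. The number of C1QB reads for each C1QA read, which is not corrected for gene length, was 1.57, 1.31, 1.29 and 2.73 pre-molt and 2.14, 1.72, 6.42 and 1.14 post-molt. Post-molt 9678 had the most uneven pair, with 321 reads of C1QB and 50 of C1QA. On the log2 scale the ratio was 0.71 ± 0.51 pre-molt and 1.19 ± 1.06 post-molt, a difference of 0.47 that was within the spread of the libraries (exact permutation test, two-sided, p = 0.543; the smallest p this design allows is 0.0286).

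CSF1R, the receptor that macrophages need for survival, was at 3.76, 16.5, 5.67 and 8.35 CPM pre-molt and at 13.8, 14.3, 3.29 and 7.25 CPM post-molt. Both groups spanned low and high values, with the lowest library of all (9678) in the post-molt group. The means of 8.58 ± 5.63 and 9.65 ± 5.31 CPM differed by 0.17 ± 0.52 on the log2 scale (95% interval -0.95 to 1.30, edgeR adjusted p = 0.951). Without pre-molt 5842 the value was 0.72 (-0.40 to 1.85), and without both 5842 and 9678 it was 1.01, with an edgeR unadjusted p of 0.0267 and an edgeR adjusted p of 0.460. Pre-molt 5842 held the highest CSF1R value of all and post-molt 9678 the lowest. Leaving both out raises the log2 fold change by construction, so this unadjusted p adds no support. Ligands of CSF1R were measured as well. CSF1 was at 7.54 ± 4.56 and 8.35 ± 3.03 CPM (edgeR adjusted p = 0.951), and IL34 at 4.82 ± 2.53 and 3.95 ± 1.78 CPM (edgeR adjusted p = 0.909).

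CD14 codes for a co-receptor that hands bacterial lipopolysaccharide to TLR4. It was at 4.97, 14.2, 2.83 and 7.86 CPM pre-molt and at 3.47, 8.19, 4.52 and 2.64 CPM post-molt, with overlapping groups. Here post-molt 5572 was the highest of its group and the second highest of all. The means were 7.47 ± 4.94 and 4.70 ± 2.45 CPM (log2 fold change -0.67 ± 0.53, 95% interval -1.81 to 0.48, edgeR adjusted p = 0.725), and the value was -0.14 without pre-molt 5842 (-1.29 to 1.01). TLR4 itself was at 0.823 ± 0.0790 and 1.34 ± 0.958 CPM, with post-molt 4448 at 0 (edgeR adjusted p = 0.916).

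MRC1, the mannose receptor of tissue-resident macrophages, was covered by few reads: 20, 175, 12 and 96 pre-molt and 0, 32, 0 and 70 post-molt. These correspond to 0.476, 5.49, 0.222 and 1.61 CPM pre-molt and 0, 0.889, 0 and 1.39 CPM post-molt. A count of 0 allows up to 0.0430 CPM in post-molt 4448 and 0.0968 CPM in post-molt 9678 (3 counts, counting error only). These limits may be too low, since 1328 and 2117 tested genes had no read in these libraries. The post-molt group thus held the lowest values, but its other libraries lay within the pre-molt range. The log2 fold change was -1.77 ± 1.64 (95% interval -5.33 to 1.79, edgeR adjusted p = 0.788) with all libraries and -0.42 (-4.59 to 3.76) without pre-molt 5842.

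LYVE1 is a hyaluronan receptor found on a subset of resident macrophages and on lymphatic endothelium. Its reads numbered 34, 202, 50 and 19 pre-molt and 0, 52, 73 and 6 post-molt, or 0.809, 6.34, 0.923 and 0.319 CPM and 0, 1.44, 2.36 and 0.119 CPM. Pre-molt 5842 again held the highest value, and both groups reached below 0.5 CPM. The log2 fold change was -1.10 ± 1.46 (95% interval -4.26 to 2.06, edgeR adjusted p = 0.866) and turned to 0.52 (-3.16 to 4.21) without pre-molt 5842. The 9 lymphatic endothelium markers, led by PROX1, CCL21 and FLT4, summed to 26.2 to 52.0 CPM pre-molt and 45.9 to 61.0 CPM post-molt, with 0 of 6 tested called by edgeR or DESeq2 and 0 at an unadjusted p under 0.05. PROX1 is also made by muscle fibers. The share of the LYVE1 reads that came from lymphatic vessels was not tested.

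AIF1, also called IBA1, codes for an actin-binding protein of macrophages and was the thinnest measurement, with 132 reads in all. Reads numbered 13, 66, 0 and 20 pre-molt and 0, 24, 0 and 9 post-molt, so 3 libraries had none. No difference between groups passed the test, and the interval was wide (log2 fold change -1.67 ± 2.01, 95% interval -6.03 to 2.68, edgeR adjusted p = 0.849; -0.02 without pre-molt 5842). Zeros were common at such levels: 93.7% of the tested genes with a mean CPM within 1.25-fold of that of AIF1 had a library at 0, as did 70.4% of those near MRC1, 64.2% of those near LYVE1 and 44.9% of those near CD68.

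CD68 codes for a lysosomal glycoprotein that phagocytes carry in quantity. Reads numbered 71, 0, 57 and 29 pre-molt and 118, 222, 141 and 99 post-molt. The levels were 1.69, 0, 1.05 and 0.487 CPM pre-molt and 1.69, 6.17, 4.55 and 1.96 CPM post-molt. CD68 was the 1 marker of 8 whose groups did not overlap, as was true of 9.15% of all genes tested (4.04% with higher and 5.11% with lower values post-molt). The margin was small, since pre-molt 5572 at 1.689 CPM lay just under post-molt 4448 at 1.691 CPM. The mean went from 0.807 ± 0.728 to 3.59 ± 2.15 CPM, a log2 fold change of 2.15 ± 1.08 that did not pass (95% interval -0.21 to 4.50, unadjusted p = 0.0706, edgeR adjusted p = 0.504). Pre-molt 5842, the library with the highest CPM of the other 7 markers, had no CD68 read. Counting error only would allow up to 0.0941 CPM. That limit may be too low, since 1119 tested genes had no read in this library. Without pre-molt 5842 the log2 fold change was 1.76 (0.05 to 3.46, unadjusted p = 0.0444, edgeR adjusted p = 0.515).

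**Figure D2:**
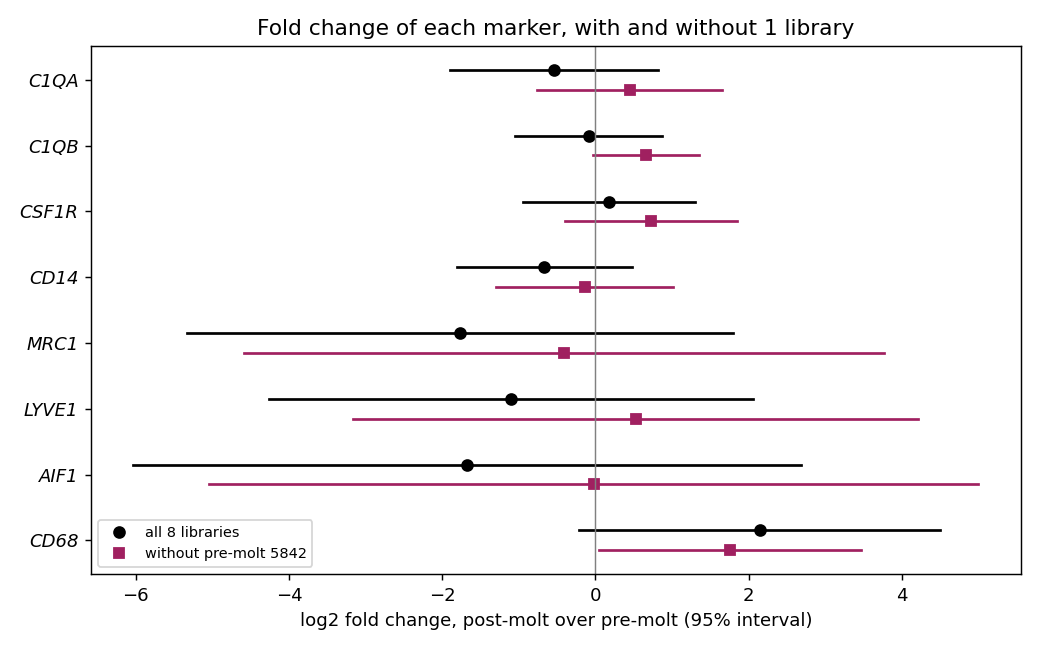
Log2 fold change of each marker, post-molt over pre-molt, with its 95% interval from edgeR. Black circles use all 8 libraries and purple squares leave out pre-molt 5842. Leaving it out moves C1QA, C1QB and LYVE1 from below 0 to above 0 and lowers CD68 from 2.15 to 1.76, and of the intervals only that of CD68 without pre-molt 5842 lies wholly on 1 side of 0.

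Across the 8 libraries, the correlation of log2 CPM (with 2 reads added to each count) was computed for 28 pairs of markers. It was positive in 20 of the 21 pairs without CD68 and negative in the 7 pairs with it, and 0 pairs passed after adjustment. The coefficient of each marker with the mean of the other 7 was 0.36 (LYVE1) to 0.90 (AIF1) for the markers other than CD68 and -0.66 for CD68. The highest was between MRC1 and AIF1 (Pearson r = 0.88, exact permutation p = 0.00375, adjusted p = 0.105; Spearman rho = 0.86, exact permutation p = 0.0107, adjusted p = 0.215; r = 0.84 without post-molt 4448 and 9678, the 2 libraries farthest from the median of MRC1). C1QA and C1QB gave r = 0.63 (exact permutation p = 0.0965, adjusted p = 0.328) and rho = 0.60 (exact permutation p = 0.132, adjusted p = 0.550), and r = 0.55 without pre-molt 5842 and post-molt 9678. Of the 7 negative coefficients with CD68, 5 became positive when the 2 libraries farthest from the median were left out. Positive ones turned negative for AIF1 with C1QB (0.50 to -0.60), LYVE1 (0.57 to -0.24), C1QA (0.57 to -0.03) and CSF1R (0.40 to -0.04). The same held for C1QA with LYVE1 (0.13 to -0.45) and CD14 (0.40 to -0.03). Pre-molt 5842 was among the libraries left out in each of these, and the remaining positive coefficients kept their sign. The libraries left out were the farthest on only 1 gene of each pair. For all pairs with MRC1 they were post-molt 4448 and 9678. Pre-molt 5842, the highest library for MRC1, stayed in those pairs, so their kept sign cannot show what it contributed. Seal 5572 gave 2 of the libraries, so they are not fully independent.

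Likeness to the mean log2 CPM of the 8 markers was ranked over 11061 candidates. These were genes other than the markers with a mean of at least 1 CPM, and entries with LOC identifiers were left out. The closest were TMSB10 (r = 0.96, rho = 0.95), FABP4 (r = 0.94, rho = 0.90), PSENEN (r = 0.93, rho = 0.83), DPT (r = 0.93, rho = 0.90) and MRPS14 (r = 0.93, rho = 0.95) over 8 libraries. Without pre-molt 5842 and post-molt 5572, the libraries farthest from the median, r was 0.78 to 0.94. TMSB10 codes for an actin-sequestering thymosin, FABP4 for a fatty acid carrier of adipocytes, endothelium and macrophages, and DPT for a matrix protein of connective tissue. They were picked for this likeness, so no test is given.

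Seal 5572 allowed a comparison within 1 animal, with no replicate. All 8 markers were higher in its post-molt library. The log2 ratio of post-molt to pre-molt was 1.93 for CSF1R, 1.87 for CD68, 1.11 for AIF1, 0.90 for MRC1, 0.84 for LYVE1, 0.72 for CD14, 0.46 for C1QB and 0.32 for C1QA. The median over the markers was 0.87, and that over the 14255 tested genes with a read in both libraries was 0.00, with 50.2% of them higher post-molt. Of 45 other macrophage and myeloid genes with a read in both libraries, 39 were also higher post-molt, with a median of 1.53. Lists of other cell types did not share 1 direction in this seal. Neutrophil markers were higher post-molt for 7 of 8 genes, with a median log2 ratio of 4.05. Neutrophil markers, led by CSF3R, MMP9 and S100A9, summed to 2.85 CPM in pre-molt 5572 and 55.2 CPM in post-molt 5572, the highest of all libraries. They were at 0.742 to 11.4 CPM in the other post-molt libraries and at 9.31, 24.5 and 31.6 CPM in pre-molt 5842, 6762 and C497. The sum of T and NK cell markers was 4.0 CPM pre-molt and 16.6 CPM post-molt in this seal. Lymphatic endothelium markers were higher post-molt for 6 of 6 genes and adipocyte markers for 8 of 10, B and plasma cell markers for 1 of 4 and mast cell markers for 2 of 4, and the dendritic cell sum was 12.7 CPM pre-molt and 11.2 CPM post-molt. The part of blood or infiltrating leukocytes in the marker levels of this library was not tested.

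**Figure D3:**
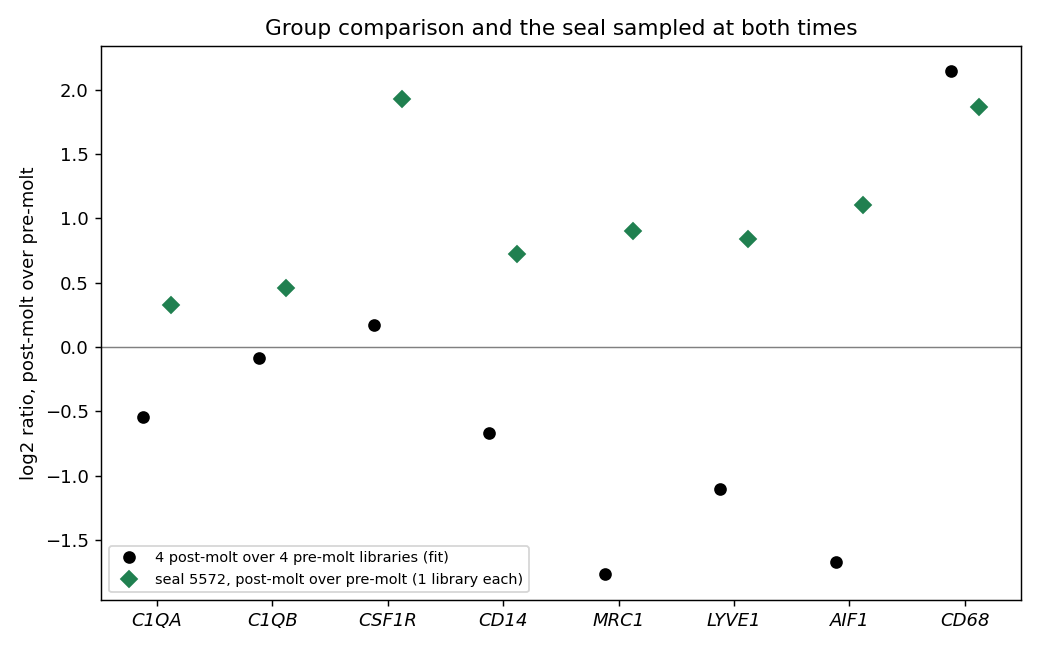
Log2 ratio of post-molt to pre-molt for each marker, in the fit of 4 against 4 libraries (black circles) and in seal 5572 alone (green diamonds, 1 library at each time, no error). All 8 diamonds lie above 0, between 0.32 and 1.93, while 6 of 8 circles lie below 0.

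Other genes of the macrophage lineage gave a similarly mixed picture. Of 64 listed myeloid and macrophage genes, 46 were tested and edgeR called 0. At an unadjusted p below 0.05 there were 1 higher and 1 lower (5.2% higher and 6.22% lower over all genes tested). Among 26 genes of myeloid surface and signaling, 17 had a positive log2 fold change (median 0.32), and among 20 genes of resident and scavenging macrophages 14 had a negative one (median -0.16). The 28 surface and signaling genes present summed to 243 CPM in post-molt 5572. They were at 63.8 to 89.3 CPM in the other post-molt libraries and at 63.5 to 140 CPM pre-molt. PTPRC, the pan-leukocyte phosphatase CD45, was at 2.83 ± 2.25 and 4.80 ± 3.91 CPM (log2 fold change 0.76 ± 0.73, edgeR adjusted p = 0.795). Its post-molt mean rested on seal 5572 (10.5 CPM, against 1.72 to 4.0 CPM in the other 3), and without both libraries of that seal the log2 fold change was -0.28. The adaptor gene TYROBP was at 5.34 ± 2.94 and 4.31 ± 3.0 CPM (log2 fold change -0.31 ± 0.60, edgeR adjusted p = 0.919; -0.19 without pre-molt 5842). ITGAM, the alpha chain of complement receptor CR3, was at 2.68 ± 1.77 and 2.69 ± 2.87 CPM, with a log2 fold change of 0.00 ± 0.86.

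By smallest p the list was led by HMOX1, NR1H3 and APOE, which muscle fibers or other cells of the tissue also express. HMOX1, the heme-degrading enzyme that macrophages induce after taking up hemoglobin, had a log2 fold change of -1.56 ± 0.48 (edgeR adjusted p = 0.189) and was lower by DESeq2 (adjusted p = 0.0188). The groups overlapped. HMOX1 was at 3983 and 5103 CPM in pre-molt 5572 and 6762 and at 853 and 1273 CPM in pre-molt 5842 and C497. Post-molt it was at 638 to 1210 CPM. NR1H3, the sterol-sensing receptor LXR-alpha, was at 4.40 ± 1.56 and 8.58 ± 1.64 CPM (0.96 ± 0.38, edgeR adjusted p = 0.326). Its groups did not overlap, as was true of 4.04% of all genes tested with higher values post-molt. The lipid carrier gene APOE was at 36.7 ± 17.1 and 22.8 ± 6.68 CPM (-0.69 ± 0.32, edgeR adjusted p = 0.440; -0.29 without pre-molt 5842).

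Heme and iron handling follows the uptake of hemoglobin by macrophages. Of 14 listed genes 8 were tested, and edgeR called 0. At an unadjusted p below 0.05 there were 1 higher and 2 lower (5.2% higher and 6.22% lower over all genes tested). HMOX1, also counted in the myeloid list, was among the lower ones. The 2 ferritin chains, which store iron, had opposite signs. FTL, the light chain, was at 2069 ± 475 CPM before the molt and 3952 ± 699 CPM after it (log2 fold change 0.93 ± 0.23, edgeR adjusted p = 0.0911; higher by DESeq2, adjusted p = 5.53e-04). FTH1, the heavy chain, was at 1756 ± 276 and 1248 ± 206 CPM (-0.49 ± 0.21, edgeR adjusted p = 0.363; DESeq2 adjusted p = 0.0910). The groups did not overlap in either gene, as in 9.15% of all genes tested (4.04% higher and 5.11% lower post-molt). The 8 macrophage and C1q markers together summed to only 19.8 to 87.0 CPM, and the share of the ferritin reads that came from macrophages was not tested. Ferritin genes have near-identical pseudogene copies, so reads that align to several places were left out and these values are uncertain.

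Complement genes other than C1q cleave, amplify or restrain the signal that C1q starts. Of 49 listed genes 29 were tested, and edgeR called 0. At an unadjusted p below 0.05 there were 1 higher and 3 lower (5.2% higher and 6.22% lower over all genes tested). The median log2 fold change of the 29 was -0.37, with 20 of 29 negative. C1S, the protease carried by C1q, was at 17.9 ± 2.16 CPM before the molt and 10.9 ± 4.63 CPM after it (log2 fold change -0.72 ± 0.34, edgeR unadjusted p = 0.0527, edgeR adjusted p = 0.443; -0.46 without post-molt 9678). Every post-molt library lay below every pre-molt one, as was true of 5.11% of all genes tested. The margin was small, with post-molt 4448 at 15.2 CPM and pre-molt 5572 at 15.4 CPM. C2, which C1s cleaves, was at 8.50 ± 1.76 and 3.86 ± 2.42 CPM (-1.14 ± 0.50, edgeR adjusted p = 0.388). C3, on which the pathways converge, was at 5.84 ± 3.89 and 2.39 ± 1.83 CPM (-1.29 ± 0.68, edgeR adjusted p = 0.531). C1R and C4 were not found under their symbols.

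Farther down the cascade, the membrane attack component C7 was at 11.7 ± 0.694 and 6.22 ± 2.83 CPM (log2 fold change -0.92 ± 0.35, edgeR adjusted p = 0.312). Its groups did not overlap, as was true of 5.11% of all genes tested with lower values post-molt. Inhibitors did not share 1 direction. CD59, which blocks the membrane attack complex on the cells of the body, was at 252 ± 18.2 CPM before the molt and 390 ± 75.7 CPM after it (0.63 ± 0.20, edgeR adjusted p = 0.189). Its groups did not overlap either, as was true of 4.04% of all genes tested with higher values post-molt. CD59 was the 1 complement gene that DESeq2 called (higher, adjusted p = 0.0146). SERPING1, the inhibitor of the C1 proteases, was at 37.6 ± 10.1 and 29.1 ± 3.0 CPM (-0.37 ± 0.22, edgeR adjusted p = 0.594; -0.16 without pre-molt 5842). CALR, a receptor partner of C1q that is better known as a chaperone of the endoplasmic reticulum, was at 123 ± 16.7 and 97.8 ± 6.67 CPM (-0.33 ± 0.17, edgeR adjusted p = 0.527).

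Ligands and partners of macrophages were tested for 16 of 26 listed genes. EdgeR and DESeq2 called 0, with 1 lower at an unadjusted p under 0.05, the chemokine gene CXCL12 (104 ± 27.2 and 72.3 ± 4.43 CPM, log2 fold change -0.53 ± 0.21, edgeR adjusted p = 0.348). Over all genes tested, 6.22% were lower at that unadjusted p. GAS6, a ligand of the receptors with which macrophages bind dying cells, was at 24.0 ± 5.68 and 16.3 ± 4.59 CPM (-0.56 ± 0.26, edgeR adjusted p = 0.442). CX3CL1, the chemokine fractalkine, was at 3.75 ± 2.43 and 0.995 ± 1.31 CPM, with 2 post-molt libraries at 0 (edgeR adjusted p = 0.689). The 6 genes tested for presentation by MHC class II all had negative log2 fold changes (median -0.32). EdgeR and DESeq2 called 0 of them, and 0 had an unadjusted p under 0.05. IFI30, a lysosomal thiol reductase for antigens, was at 7.14 ± 5.98 and 3.40 ± 1.22 CPM (edgeR adjusted p = 0.545), the regulator RFXANK at 22.2 ± 11.3 and 15.2 ± 3.02 CPM (edgeR adjusted p = 0.587) and RFX5 at 23.0 ± 5.89 and 18.4 ± 3.24 CPM (edgeR adjusted p = 0.717). The summed MHC class II genes were highest in pre-molt 5842 (149 CPM, against 63.7 to 126 CPM in the others), and without that library the log2 fold change went from -1.07 to -0.32 for IFI30 and from -0.55 to -0.11 for RFXANK. The MHC class II chains themselves were not found under the symbols sought.

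Markers of the other cell types that a muscle biopsy can hold were examined in the same way, and edgeR called 0 genes in each list. Fibroblast markers, led by COL3A1, COL1A2 and COL6A1, had a median log2 fold change of -1.18 over 17 genes. Of these, 11 were lower and 1 higher at an unadjusted p below 0.05, and 6 were lower by DESeq2. Over all genes tested, 6.22% were lower and 5.2% higher at that unadjusted p. DESeq2 called 3.16% of the genes with an adjusted p lower. Blood endothelium markers (VWF, PECAM1 and CLDN5 the most abundant) had a median of -0.01 over 13 genes and satellite cell markers (CDH15, MYOD1 and MEGF10) one of 0.28 over 6, with 1 and 0 lower and none higher at an unadjusted p under 0.05. Lymphocyte and dendritic cell markers had low sums, at most 16.6 CPM for T and NK cells, 18.0 CPM for B and plasma cells and 21.0 CPM for dendritic cells. Of 8 T and NK genes tested, 6 had a positive log2 fold change. LCK was at 0.184 ± 0.215 and 2.07 ± 1.28 CPM, and 2 libraries had no LCK read (log2 fold change 3.47 ± 1.54, edgeR unadjusted p = 0.0428, edgeR adjusted p = 0.407). Its groups did not overlap, as was true of 4.04% of all genes tested with higher values post-molt. Mast cell markers summed to at most 22.8 CPM, and of the 4 tested 2 had a positive and 2 a negative log2 fold change. GATA2, a transcription factor that endothelium also expresses, was higher by DESeq2 (log2 fold change 1.58 ± 0.52, edgeR adjusted p = 0.220, DESeq2 adjusted p = 0.0489). KIT went the other way, from 5.71 ± 2.78 to 2.16 ± 1.17 CPM (-1.40 ± 0.57, edgeR adjusted p = 0.348, DESeq2 adjusted p = 0.111). Adipocyte markers, led by LPL, PNPLA2 and LIPE, summed to 1015 to 1300 CPM pre-molt and 758 to 1829 CPM post-molt. By DESeq2, 1 adipocyte gene was lower and 1 higher, the lipase gene PNPLA2 (log2 fold change 1.43 ± 0.32, edgeR adjusted p = 0.0718, DESeq2 adjusted p = 7.08e-04). DESeq2 also called 1 blood endothelium gene lower, and 1 muscle fiber gene higher and 1 lower.

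**Figure D4:**
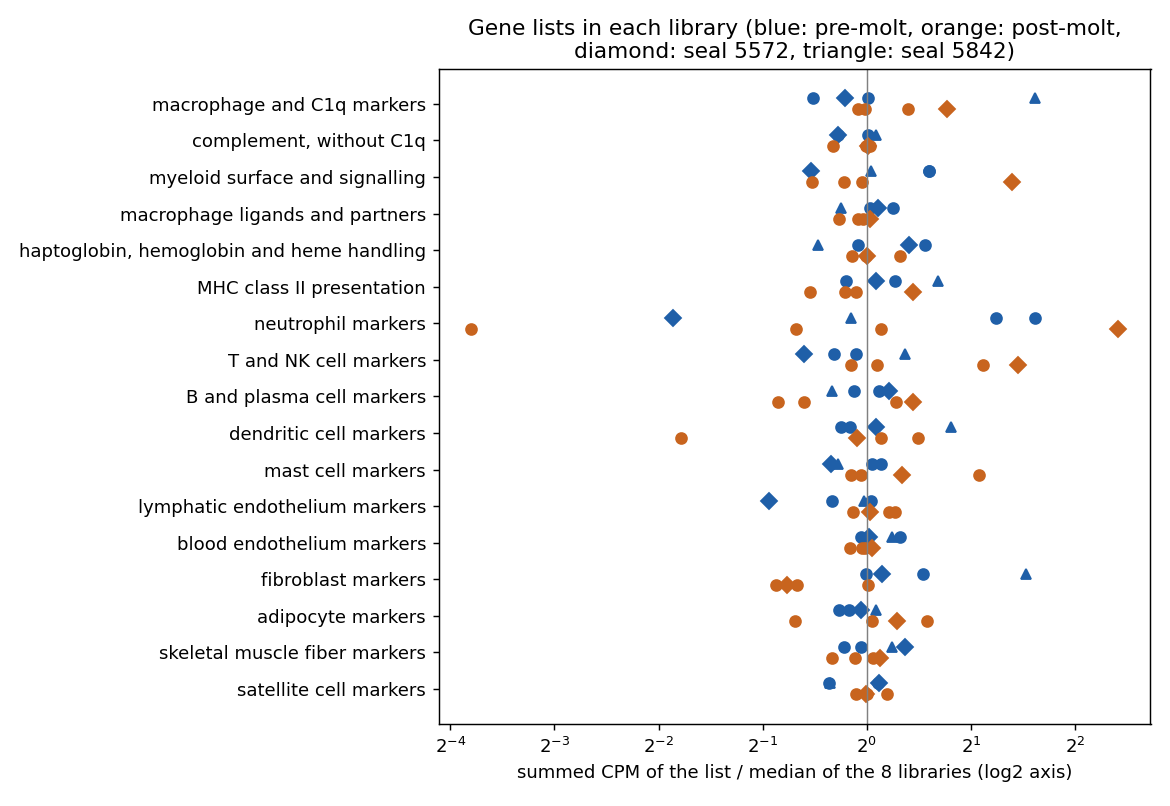
Summed CPM of each gene list in each library, divided by the median of the 8 libraries for that list, on a log2 axis (blue pre-molt, orange post-molt; diamond, seal 5572; triangle, seal 5842). Pre-molt 5842 is the highest library for the macrophage and C1q markers and for the fibroblast markers, and post-molt 5572 for the myeloid surface and neutrophil lists.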

How the data were processed

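Raw counts per gene of 8 libraries were used as deposited. The authors aligned paired-end reads of 50 bases to the genome of the Hawaiian monk seal, a related species, and used STAR's own counting per gene. The labels' processing notes name bcl2fastq 2.20, R 3.4.3 and DESeq2 1.18.1. The strand setting is not given in the sources used here, so an antisense overlap could add reads to a gene, and reads aligned to several places were left out. Of 24349 entries, 8 without a gene name (0.0145 to 0.0187% of counts) were removed. No 2 libraries were copies (lowest chi-square per degree of freedom over 28 pairs, 98.95).

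Genes were filtered with filterByExpr (minimum count 10, minimum total 15), scaled with TMM and tested with glmQLFTest of edgeR 4.0.16 in R 4.3.3, at an adjusted p of 0.05. SEs and 95% intervals derive from the fit. DESeq2 1.42.0, limma 3.58.1, other filters and factors, and left-out libraries were alternatives. CPM for likeness used a prior count of 2.

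Members and lists were chosen with earlier results of these data known. Named genes were all markers present, each list's called genes and its 3 smallest p, the 3 most abundant genes of each cell type list and the 5 genes most like the markers. C1S, C3, SERPING1, CALR, CSF1, IL34, TLR4, PTPRC, TYROBP and ITGAM were added for their role. No reference sequence was used, and levels were not compared between genes per length.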

Additional observations from a re-analysis of the deposited data

Results flagged for a closer look

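In pre-molt 5842, several genes lay far from the other 3 pre-molt libraries (a gap to the nearest library that exceeded Dixon's critical share of the range of the 4): LYVE1 (6.34 CPM), C1QA (18.4 CPM), C1QB (24.0 CPM), AIF1 (2.07 CPM), FABP4 (107 CPM), PSENEN (42.5 CPM) and TLR4 (0.941 CPM, where the other 3 lay close together). FABP4 and PSENEN had been picked for their likeness to the markers. In post-molt 5572, GAS6 was at 23.1 CPM, apart from the other 3 post-molt libraries. Of 74 gene and group pairs examined, 8 were apart in this way, 7 of them in pre-molt 5842. Chance gives such a gap in about 1 group in 20 where values are normally distributed. CPM was used here without a log transform, so the rate may be higher, and genes of 1 library are not independent.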

How the results depend on the processing

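Under all 18 alternatives 0 of the 8 markers were called in either direction. At an unadjusted p under 0.05 there was 1 of 8 in 4 of these, CD68 by DESeq2, without pre-molt 5572 and without pre-molt 5842, and CSF1R without 5842 and 9678. Libraries 5842 and 9678 held the highest and lowest CSF1R values, so leaving them out raises its log2 fold change by construction. MRC1, CD14 and CD68 kept their sign in every fit that tested them. Log2 fold changes turned in sign for C1QA (0.093) and C1QB (0.30) with limma-voom, where TLR4 was at -1.49 and ITGAM at -0.59; for CSF1R (-0.32), PTPRC (-0.28) and ITGAM (-1.41) without both libraries of seal 5572; and, without 5842 and 9678, for C1QA (0.75), C1QB (0.66), AIF1 (0.38), RFXANK (9.14e-04), FABP4 (0.15), PSENEN (0.088) and IL34 (0.33). The causes were not tested. With 1 library left out at a time the ranges were -0.82 to 0.45 for C1QA, -0.32 to 0.66 for C1QB, -0.079 to 0.72 for CSF1R, -2.01 to 0.52 for LYVE1, 1.76 to 2.79 for CD68, -0.34 to 0.077 for PSENEN, -0.068 to 0.61 for CSF1, -0.60 to 0.16 for IL34 and -1.06 to 0.45 for ITGAM. Of 660 values of named genes under alternatives, 628 kept their direction and side of the threshold, 29 turned and 3 passed, those of CD59, HMOX1 and FTL by DESeq2.

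Over all genes, 31 were called higher and 19 lower. These counts were 128 and 97 when low counts were not filtered, 335 and 316 by DESeq2, 55 and 39 by limma-voom, 43 and 31 by robust edgeR, 3 and 2 without both libraries of seal 5572, 0 and 0 without 5842 and 9678, and 7 to 28 and 2 to 21 with 1 library left out. No paired analysis was possible because the groups share only seal 5572. With at least 1 CPM in every library of a group required, MRC1, LYVE1 and AIF1 were not tested, and which differences the depth could show was not tested.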
